A study of Ovis aries with 6 samples.

Results

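A set of 10 genes that serve protein folding and degradation in the endoplasmic reticulum (ER) was followed in sheep mitral valve endothelial cells (VECs), which line the valve leaflets, given ovine plasma collected after myocardial infarction (post-MI plasma) or naive ovine plasma. They are known targets of the transcription factors ATF6 and XBP1, and they were chosen by symbol: HSPA5, HYOU1, DNAJB9, SDF2L1, HSP90B1, CALR, PDIA4, MANF, HERPUD1 and XBP1. All 10 were found among the 18865 rows of the count table, and all 10 passed the filter on low counts, as did 14326 rows in all. The data comprise 3 libraries of VECs kept for 24 h with post-MI plasma and 3 libraries of VECs kept for the same time with naive plasma. The labels name no genotype, age or further agent. They leave unsaid whether replicates differ in culture, plasma animal or cell animal, so the p-values are set by a spread between libraries that may be technical. Cultured cells given plasma meet what circulates after infarction, but not blood cells or the motion of the valve.

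The ER is where secreted and membrane proteins fold. When unfolded proteins build up there, the sensors ATF6, IRE1 (encoded by ERN1) and PERK (encoded by EIF2AK3) start the unfolded protein response, in which cleaved ATF6 and XBP1, made from an mRNA that IRE1 splices, raise chaperones and degradation factors, and PERK slows translation and favours ATF4. Endothelial cells secrete matrix and clotting proteins and carry a steady folding load. Counts per gene measure mRNA amount, and they hold nothing on the splicing of XBP1 mRNA, the cleavage of ATF6 or protein levels.

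Library totals were 14858472 to 18747848 counts with post-MI plasma and 17446474 to 20672794 counts with naive plasma. On the first principal component of the 500 most variable genes, which held 59.4% of their variance, the score of naive replicate 1 was -52.7, and the remaining 5 libraries had scores from -0.17 to 18.1. The log2 fold change of each of the 10 genes is therefore given with and without naive replicate 1. The summed level of 12 genes of glucose transport, glycolysis and hypoxia was 1856, 2298 and 2816 CPM (counts scaled by library total and TMM factor) in post-MI replicates 1, 2 and 3, against 8939, 2939 and 3521 CPM in naive replicates 1, 2 and 3. All 12 endothelial markers were detected, with PECAM1 at 968 to 1407 CPM in post-MI libraries and 889 to 1289 CPM in naive libraries. Of the 12, 10 had a log2 fold change above 0 (median 0.44), KDR (-0.29) and TEK (-0.31) were under 0, and edgeR called 0. ROBO4 and CLDN5, named after their values were seen, were higher with post-MI plasma without overlap (16.7%, beside 8.32% of all genes). DESeq2 called 1 of the 12, ROBO4 (DESeq2 adjusted p = 0.0461), beside 1.51% of all genes. The lowest post-MI value of ROBO4 was 21.5 CPM and its highest naive value was 20.3 CPM. Of 11 leukocyte and plasma cell markers in the table, the defining PTPRC, CD3E, CD79A and MZB1 reached at most 1.33 CPM in any library. At that low level PTPRC was higher with post-MI plasma without overlap, at 0.64, 0.82 and 1.33 CPM against 0.20, 0.35 and 0.14 CPM (edgeR adjusted p = 0.443). It was 1 of 4 tested in the list (25%, beside 8.32% of all genes), and the other 3 had log2 fold changes under 0. JCHAIN was at 2.42 to 3.86 CPM with post-MI plasma and 3.48 to 3.85 CPM with naive plasma. CD14 was at 22.6 to 32.4 CPM with post-MI plasma and 25.9 to 41.4 CPM with naive plasma, CD68 was at 6.87 to 10.5 CPM with post-MI plasma and 8.45 to 13.0 CPM with naive plasma, and the list summed to 37.9 to 43.4 CPM with post-MI plasma and 39.2 to 58.8 CPM with naive plasma. Fibroblast and valve interstitial markers, led by collagens, summed over 10 genes to 14198 to 18835 CPM with post-MI plasma and 11062 to 20726 CPM with naive plasma. The sum was lowest in naive replicate 1, where POSTN (3061 CPM) and PDGFRA (58.6 CPM) of that list were at their highest. Smooth muscle markers summed to 4459 to 6134 CPM with post-MI plasma and to 938, 4959 and 2448 CPM in naive replicates 1, 2 and 3. A list of 10 cell cycle genes summed to 914, 716 and 600.1 CPM in post-MI replicates 1, 2 and 3, against 355, 331 and 262 CPM in naive replicates 1, 2 and 3, with no overlap for 9 of the 10, beside 8.32% of all genes higher in that way. The part of these differences in the results below was not tested, and in bulk samples fewer cells of a type and less RNA per cell cannot be told apart.

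For none of the 10 ER genes was a difference between post-MI and naive plasma detected that exceeded the spread between libraries. By edgeR's quasi-likelihood test adjusted over all 14326 genes, 0 of the 10 passed an adjusted p of 0.05, where 0% of all genes passed. At an unadjusted p under 0.05, 0 of the 10 passed, beside 8.68% of all genes, and DESeq2 also called 0 of the 10, beside 1.51% of all genes. CPM of the groups overlapped for all 10, while 16.1% of all genes had groups that did not overlap. Of the log2 fold changes (post-MI over naive) 5 were positive and 5 negative, with a median of -0.01, beside -0.01 over all genes tested. The estimates ran from -0.29 for HSPA5 to 0.42 for MANF.

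**Figure D1:**
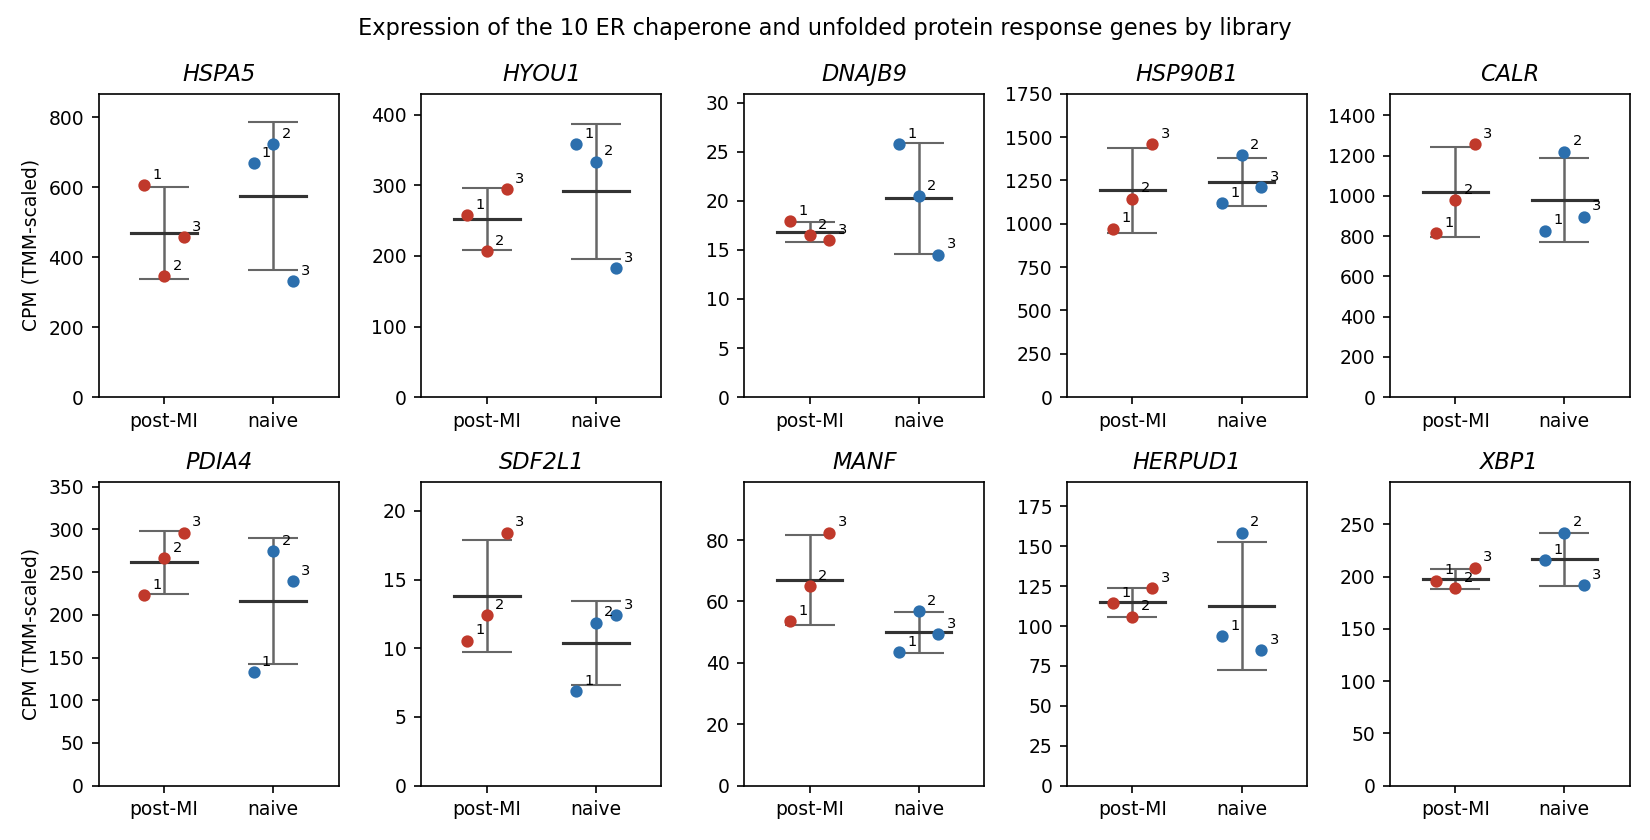
Level of each gene in CPM (vertical axes, linear from 0) in the 3 post-MI libraries (red, left) and the 3 naive libraries (blue, right); numbers are replicates, and bars are the mean and SD. The groups overlap in all 10 panels, and for HSPA5, HYOU1 and DNAJB9 naive replicates 1 and 2 lie above every other library and naive replicate 3 below them all.

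HSPA5 encodes BiP (GRP78), the main Hsp70 chaperone of the ER, which also holds the stress sensors inactive. It was at 606, 345 and 457 CPM in post-MI replicates 1, 2 and 3, against 668, 723 and 332 CPM in naive replicates 1, 2 and 3. The lowest value of all 6 was a naive library, and post-MI replicate 1 stood with the other naive libraries. HSPA5 averaged 470 ± 131 CPM with post-MI plasma and 574 ± 212 CPM with naive plasma (SD, n = 3 each), with -0.29 ± 0.33 as the log2 fold change and its SE (edgeR adjusted p = 0.794). The 95% interval of -1.08 to 0.50 leaves room for a fall past 2-fold, so a change of that size was not excluded by these libraries. The estimate was -0.15 with naive replicate 1 left out, and it ran from -0.57 to -0.09 over the fits with 1 library left out.

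HYOU1 encodes GRP170, a large chaperone that exchanges the nucleotide of BiP. It was at 257, 207 and 294 CPM in post-MI replicates 1, 2 and 3, against 358, 334 and 182 CPM in naive replicates 1, 2 and 3. As for HSPA5, naive replicates 1 and 2 were the highest libraries and naive replicate 3 the lowest. The HYOU1 log2 fold change was -0.21 ± 0.28 (SE, adjusted p = 0.823 in edgeR), and leaving out naive replicate 1 brought it to -0.02.

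DNAJB9 encodes ERdj4, a J-domain partner that directs BiP to misfolded clients and to IRE1. It was at 17.96, 16.5 and 15.99 CPM in post-MI replicates 1, 2 and 3, against 25.8, 20.5 and 14.5 CPM in naive replicates 1, 2 and 3. The post-MI libraries differed by 1.12-fold from lowest to highest and the naive libraries by 1.78-fold, and all post-MI values lay between the naive ones. The DNAJB9 log2 fold change was -0.27 ± 0.22 (SE, adjusted p = 0.707 in edgeR), and leaving out naive replicate 1 brought it to -0.04.

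Leaving out 1 library ended the overlap for some of the 10 genes, in either direction. It did so for 0 of the 10 when that library was post-MI replicate 2, post-MI replicate 3 or naive replicate 1. Without naive replicate 3, HSPA5, HYOU1, DNAJB9 and XBP1 had post-MI values that all lay below both naive values, 4 of the 10 genes, beside 14.8% of all genes lower in that way. For HSPA5, HYOU1 and DNAJB9 naive replicate 3 was the lowest library and the other naive libraries the highest. That omission was therefore bound to separate their groups. Without post-MI replicate 1, SDF2L1 and MANF lay higher with post-MI plasma (2 of the 10, beside 11.3% of all genes), and without naive replicate 2, HERPUD1 and MANF did (2 of the 10, beside 14.9%). In the fit without naive replicate 3 DNAJB9 had a log2 fold change of -0.46 (edgeR unadjusted p = 0.0333, adjusted p = 0.470), and 10.2% of all genes had an unadjusted p under 0.05. HSPA5 then had a log2 fold change of -0.57 (edgeR adjusted p = 0.5001).

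SDF2L1 encodes a small ER protein that works with the J-protein DNAJB11 in the BiP cycle. It was at 10.6, 12.4 and 18.4 CPM in post-MI replicates 1, 2 and 3, against 6.91, 11.9 and 12.4 CPM in naive replicates 1, 2 and 3. Post-MI replicate 3 was the highest library, naive replicate 1 the lowest, and the other 4 lay close together, so its order was unlike that of HSPA5 and HYOU1. It averaged 13.8 ± 4.10 CPM with post-MI plasma and 10.4 ± 3.03 CPM with naive plasma (SD, n = 3 each), so the log2 fold change was 0.41 with SE 0.30 (edgeR adjusted p = 0.674), while leaving out naive replicate 1 gave 0.19 and leaving out post-MI replicate 3 gave 0.15. It was the gene with the fewest reads, 138 in naive replicate 1, whose exact Poisson interval of 5.80 to 8.16 CPM lay below all other libraries. That interval covers counting error alone.

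HSP90B1 encodes GRP94, the Hsp90 chaperone of the ER, which folds integrins and Toll-like receptors among others. It was at 972, 1145 and 1459.8 CPM in post-MI replicates 1, 2 and 3, against 1122, 1396 and 1211 CPM in naive replicates 1, 2 and 3. Both the lowest and the highest library were post-MI ones. For HSP90B1 the log2 fold change was -0.06 ± 0.20 (SE, edgeR adjusted p = 0.938), with a 95% interval of -0.53 to 0.41, and -0.12 with naive replicate 1 left out.

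CALR encodes calreticulin, a lectin chaperone that binds glycoproteins and stores calcium. It was at 815, 979.96 and 1258 CPM in post-MI replicates 1, 2 and 3, against 828, 1220.01 and 897 CPM in naive replicates 1, 2 and 3. Its libraries stood nearly in the order of HSP90B1, with post-MI replicate 3 and naive replicate 2 on top in both. The CALR log2 fold change was 0.05 ± 0.23 (SE, edgeR adjusted p = 0.955), with a 95% interval of -0.49 to 0.59, and -0.05 with naive replicate 1 left out.

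PDIA4 encodes ERp72, a disulfide isomerase. It was at 223, 266 and 296 CPM in post-MI replicates 1, 2 and 3, against 133, 274 and 239.6 CPM in naive replicates 1, 2 and 3. Naive replicate 1 was far below the other 5 libraries, which lay within 223 to 296 CPM. The PDIA4 log2 fold change was 0.28 ± 0.27 (SE, adjusted p = 0.754 in edgeR), and leaving out naive replicate 1 brought it to 0.03.

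MANF encodes a small secreted ER protein that binds BiP and is released under ER stress. It was at 53.5, 65.0 and 82.4 CPM in post-MI replicates 1, 2 and 3, against 43.4, 56.9 and 49.5 CPM in naive replicates 1, 2 and 3. The groups overlapped through post-MI replicate 1 and naive replicate 2, which lay above it. MANF averaged 67.0 ± 14.5 CPM with post-MI plasma and 49.9 ± 6.74 CPM with naive plasma (SD, n = 3 each). The MANF log2 fold change of 0.42 ± 0.19 (SE) had the smallest unadjusted p of the 10, 0.0645, with an edgeR adjusted p of 0.568, and 1625 of the genes tested had a smaller p. Leaving out naive replicate 1 gave 0.34 and leaving out post-MI replicate 3 gave 0.25. Leaving out post-MI replicate 1 gave 0.56 (edgeR unadjusted p = 0.0250, adjusted p = 0.871), where 4.81% of all genes had an unadjusted p under 0.05.

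HERPUD1 encodes a membrane adaptor of ER-associated degradation with a ubiquitin-like domain. It was at 115, 106 and 124 CPM in post-MI replicates 1, 2 and 3, against 93.9, 159 and 85.0 CPM in naive replicates 1, 2 and 3. The post-MI libraries lay in the middle of a wide naive range. The HERPUD1 log2 fold change was 0.03 ± 0.25 (SE, edgeR adjusted p = 0.975), and -0.07 with naive replicate 1 left out.

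XBP1 encodes the transcription factor of the IRE1 arm. It was at 196, 189 and 209 CPM in post-MI replicates 1, 2 and 3, against 216, 242 and 192 CPM in naive replicates 1, 2 and 3. It was the steadiest of the 10, with 1.28-fold between its lowest and highest library. Its log2 fold change was -0.13 ± 0.14 (SE, edgeR adjusted p = 0.783), and its 95% interval of -0.46 to 0.20 is the narrowest of the 10. With naive replicate 1 left out it was -0.12.

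**Figure D2:**
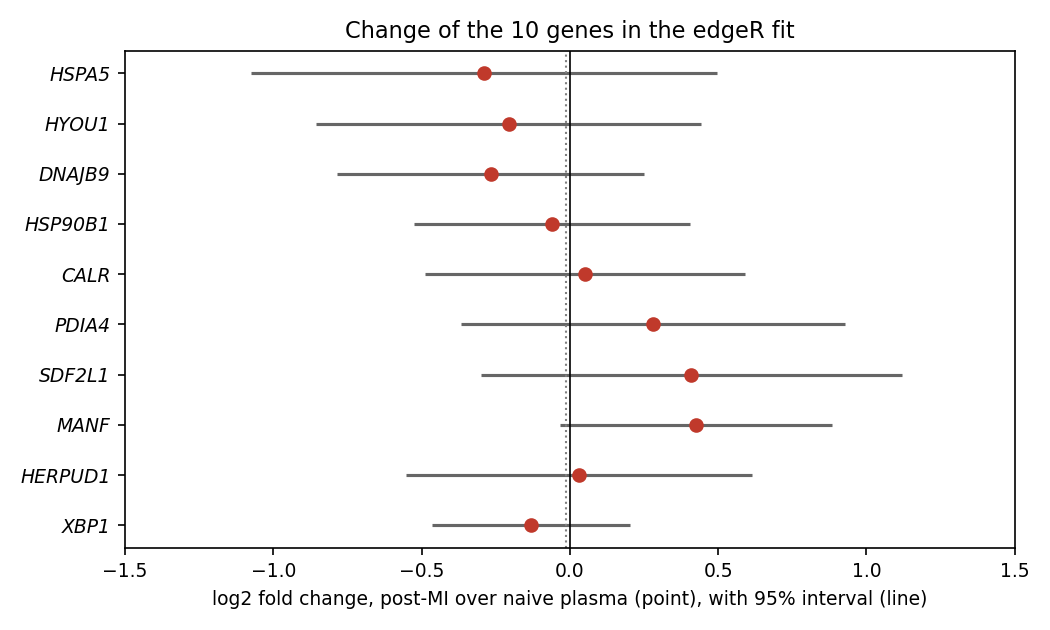
Log2 fold change of each gene, post-MI over naive plasma (horizontal axis), with its 95% interval from the edgeR fit; the dotted line is the median of all genes tested. All 10 intervals include 0, from the widest for HSPA5 (-1.08 to 0.50) to the narrowest for XBP1 (-0.46 to 0.20).

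The 10 genes did not vary in one block over the libraries. On the log2 scale the SD between naive libraries exceeded that between post-MI libraries for 7 of the 10, beside 66.6% of all genes tested. The exceptions were HSP90B1, CALR and MANF. HSPA5 had an SD of 0.41 in post-MI and 0.62 in naive libraries, DNAJB9 of 0.09 and 0.42, and PDIA4 of 0.21 and 0.56. The summed level of the 10 genes was 3266, 3332 and 4215 CPM in post-MI replicates 1, 2 and 3, against 3495, 4437 and 3215 CPM in naive replicates 1, 2 and 3. They took 0.325% to 0.420% of counts in post-MI libraries and 0.331% to 0.439% in naive libraries.

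Naive replicate 1, the library that stood apart on the first component, split the genes. Relative to each gene's own mean over the 6 libraries, on the log2 scale, it was at 0.50 for DNAJB9, 0.44 for HYOU1 and 0.42 for HSPA5, but at -0.80 for PDIA4, -0.75 for SDF2L1 and -0.40 for MANF. Naive replicate 2 lay at or above the mean for 9 of the 10, with MANF at -0.01. Naive replicate 3 held the lowest value of 4 genes (HSPA5, HYOU1, DNAJB9 and HERPUD1), and post-MI replicate 3 held the highest value of 5 (SDF2L1, MANF, PDIA4, CALR and HSP90B1).

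**Figure D3:**
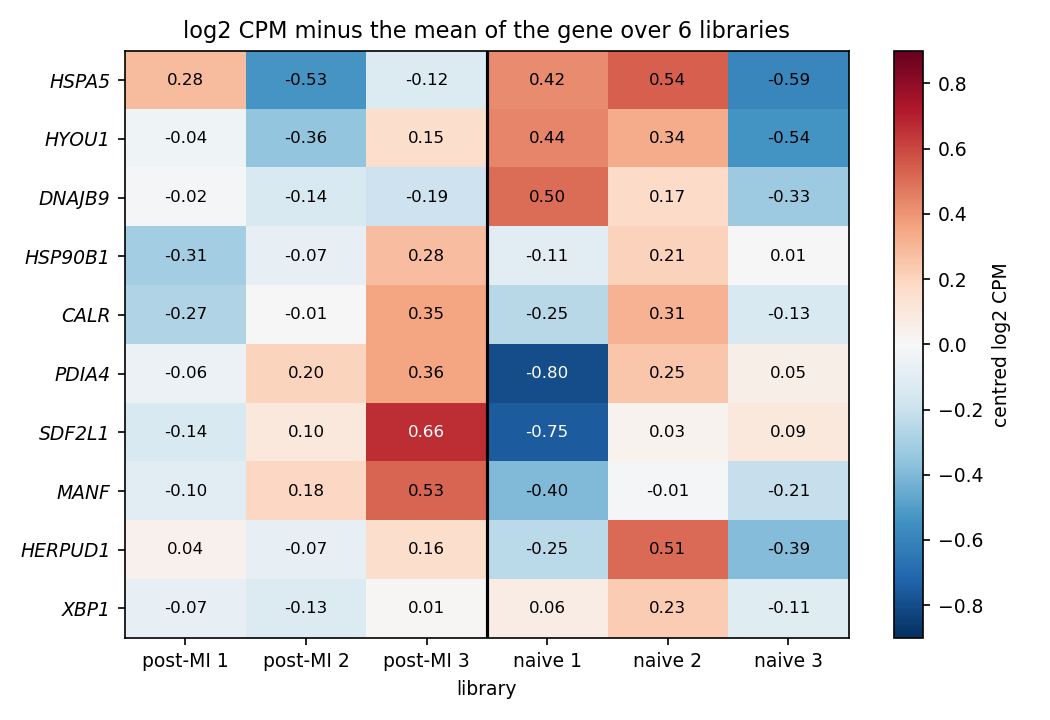
Log2 CPM of each gene (rows) in each library (columns) minus the gene's mean over the 6 libraries, with post-MI libraries left of the line. Naive replicate 1 is high for HSPA5, HYOU1 and DNAJB9 (0.42 to 0.50) and low for PDIA4 and SDF2L1 (-0.80 and -0.75).

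Ratios of counts within a library do not depend on how libraries are scaled. They were formed for all 45 pairs of the 10 genes and serve to compare libraries, not the levels of the genes. The steadiest was HSP90B1 over CALR, at 1.19, 1.17 and 1.16 in post-MI replicates 1, 2 and 3 and 1.35, 1.14 and 1.35 in naive replicates 1, 2 and 3. It differed by 1.18-fold between its lowest and highest library. HSPA5 over PDIA4 was at 2.72, 1.30 and 1.54 in post-MI replicates 1, 2 and 3 and at 5.02, 2.63 and 1.38 in naive replicates 1, 2 and 3, a 3.87-fold range, and 21 of the 45 ratios spanned more than 2-fold.

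For 5 of the 45 ratios (11.1%) the groups did not overlap, beside 16.3% of the ratios between all pairs of tested genes with a count in every library. These 5 were named after their values were seen, and 4 of them set HSP90B1 or CALR over MANF, PDIA4 or SDF2L1 and were lower with post-MI plasma. HSP90B1 over MANF was at 18.2, 17.6 and 17.7 in post-MI replicates 1, 2 and 3, against 25.8, 24.5 and 24.5 in naive replicates 1, 2 and 3. Here both groups were tight, with 17.8 ± 0.29 in post-MI and 24.96 ± 0.77 in naive libraries (SD, n = 3 each), a fold of 0.715. CALR over MANF was at 15.2, 15.1 and 15.3 in post-MI replicates 1, 2 and 3, against 19.1, 21.5 and 18.1 in naive replicates 1, 2 and 3. The other non-overlapping ratios were HSP90B1 over PDIA4, HSP90B1 over SDF2L1 and MANF over XBP1. Each gave p = 0.1 in an exact permutation test (two-sided), which 3 against 3 libraries cannot go below. Groups of 3 without overlap always give that p, so it followed from the choice of these ratios. After Benjamini-Hochberg adjustment over the 45 ratios it was 0.75 for each.

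**Figure D4:**
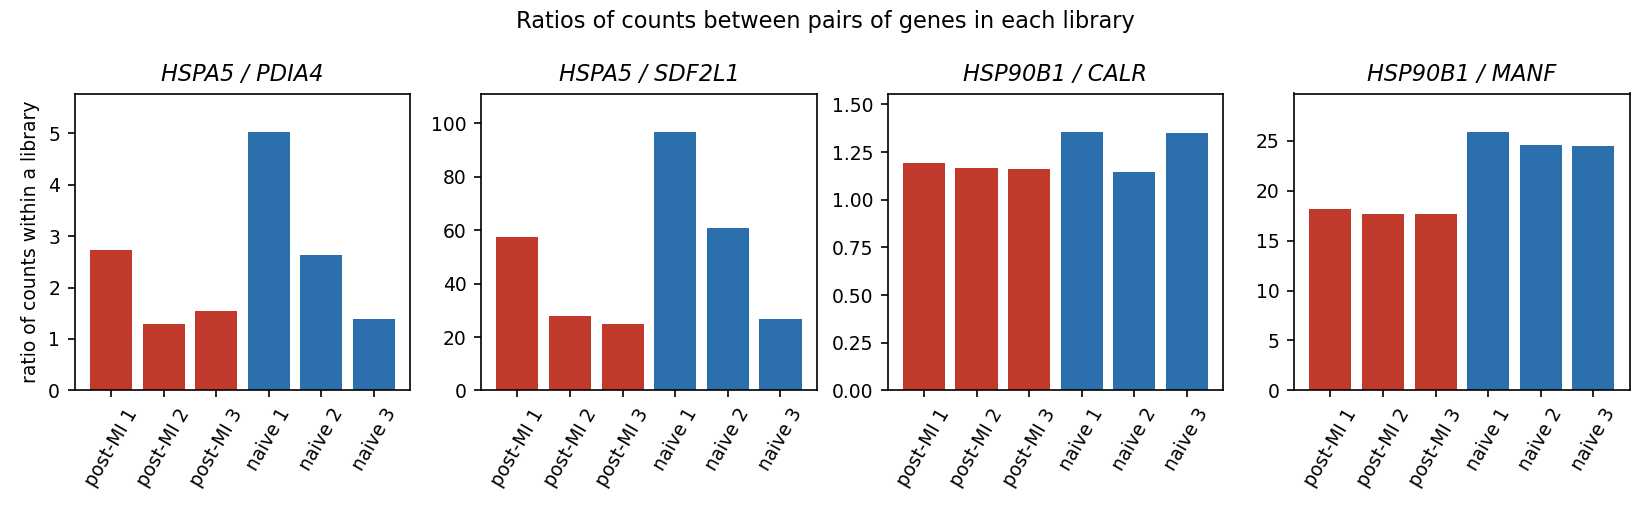
Ratio of counts of 2 genes in each library (vertical axes, linear from 0), post-MI libraries in red and naive libraries in blue. HSPA5 over PDIA4 and over SDF2L1 peak in naive replicate 1, HSP90B1 over CALR stays between 1.14 and 1.35, and HSP90B1 over MANF is 17.6 to 18.2 in post-MI and 24.5 to 25.8 in naive libraries.

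The 8 other genes whose log2 CPM over the 6 libraries was most like the mean profile of the 10, among 10665 genes whose log2 CPM averaged 3 or more, were LASP1, ENAH, SGPP1, DDX31, AVEN, FARS2, XPO6 and MAST2. Their Pearson correlations with that profile, over 6 libraries, ran from 0.936 to 0.974. They are the top of a long ranking over few libraries and are given as a description. LASP1, an actin-binding protein, was at 615, 659 and 836 CPM in post-MI replicates 1, 2 and 3, against 666, 882 and 572 CPM in naive replicates 1, 2 and 3, so it shared the peaks of the 10 in post-MI replicate 3 and naive replicate 2.

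The wider ER machinery was read from 8 lists of other genes, with 174 genes tested. By edgeR 0 of them passed over all genes (smallest adjusted p 0.461). At an unadjusted p under 0.05, 1 was higher (0.575% of the 174, beside 4.61% of all genes) and 15 were lower (8.62%, beside 4.08% of all genes). The lower count fell to 3 with post-MI replicate 1 left out (1.72%, beside 2.08% of all genes) and to 6 with post-MI replicate 2 left out (3.45%, beside 1.43%). With post-MI replicate 3 left out it was 19 (10.9%, beside 661 of 14460 genes). With naive replicate 1, 2 or 3 left out it was 14, 12 and 17 (8.05%, 6.90% and 9.77%), beside 485 of 14431, 791 of 14450 and 773 of 14423 genes. The median log2 fold change was -0.09, beside -0.01 over all genes.

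Among the sensors and transcription factors of the response (15 genes tested, median -0.00, and -0.13 with naive replicate 1 left out), ERN1 gave a log2 fold change of 0.12 ± 0.27 and ATF6 -0.37 ± 0.20 (SE). EIF2AK3 (PERK) was at 36.2, 44.8 and 42.3 CPM in post-MI replicates 1, 2 and 3, against 139, 54.1 and 66.8 CPM in naive replicates 1, 2 and 3, the one gene of its list whose groups did not overlap (6.67%, beside 7.82% of all genes lower in that way). EIF2AK3 gave -1.07 ± 0.35 on that scale (SE, adjusted p = 0.534 in edgeR). With naive replicate 1 left out EIF2AK3 gave -0.55 ± 0.16 (SE, edgeR adjusted p = 0.454). In the PERK and ATF4 arm edgeR called 0 of 11 genes. Of the 11, 10 had a log2 fold change under 0 (median -0.41), beside 7464 of all 14326 genes. With naive replicate 1 left out 7 did (median -0.15), beside 7136 of 14431 genes. NUPR1 had the smallest p of the list and was its 1 gene without overlap (9.09%, beside 7.82% of all genes lower in that way). NUPR1 gave -0.75 ± 0.20 (SE, adjusted p = 0.461 in edgeR), and -0.55 with naive replicate 1 left out. ASNS, the ATF4-driven asparagine synthetase, was at 204, 146 and 142 CPM in post-MI replicates 1, 2 and 3, against 367, 367 and 113 CPM in naive replicates 1, 2 and 3, which like HSPA5 was lowest in naive replicate 3 and highest in the other naive libraries.

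Other chaperones and co-chaperones (27 tested, median -0.06), disulfide formation (18, 0.02), ER-associated degradation (30, -0.09) and the translocon and signal peptidase (23, -0.04) had medians near that of all genes. Without overlap 1, 2, 3 and 2 genes lay lower in that order (3.70%, 11.1%, 10% and 8.70%, beside 7.82% of all genes). In ER-associated degradation 3 lay higher (10%, beside 8.32% of all genes), and 0 did in the other lists. With naive replicate 1 left out the medians of the lists were -0.08, -0.02, -0.10 and -0.01 in the same order. The smallest p of each belonged to DNAJC3 (log2 fold change -0.35 ± 0.17), ERP44 (-0.54 ± 0.23), UBXN4 (-0.44 ± 0.17) and SRP54 (-0.49 ± 0.14, SE). Their edgeR adjusted p were 0.570, 0.566, 0.566 and 0.492. At an edgeR unadjusted p under 0.05 the lists held 0, 1, 1 and 1 lower genes and 0 higher, beside 4.08% and 4.61% of all genes. DNAJB11, which pairs with SDF2L1, gave a log2 fold change of -0.11 ± 0.20, the calreticulin relative CANX -0.21 ± 0.14, and the disulfide isomerase P4HB 0.10 ± 0.16 (SE). ERO1A, the oxidase that feeds disulfide isomerases, was at 25.8, 19.0 and 24.8 CPM in post-MI replicates 1, 2 and 3, against 79.8, 29.2 and 28.1 CPM in naive replicates 1, 2 and 3. ERO1A gave a log2 value of -0.98 ± 0.42 (SE, adjusted p = 0.566 in edgeR), and -0.29 with naive replicate 1 left out.

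Of 30 genes of vesicle transport between the ER and the Golgi 9 lay lower with post-MI plasma in every library and 0 higher. Of all genes 7.82% lay lower and 8.32% higher in that way. With naive replicate 1 left out 14 of the 30 lay lower (46.7%, beside 12.8% of all genes), and with post-MI replicate 1 left out 9 did (30%, beside 12.1%). By edgeR 6 of the 30 were lower at an unadjusted p under 0.05, beside 4.08% of all genes. That count was 1 with post-MI replicate 1 left out (beside 2.08%) and 1 with post-MI replicate 2 left out (beside 1.43%). It was 8 with post-MI replicate 3 left out (beside 661 of 14460 genes) and 8 with naive replicate 1 left out (beside 485 of 14431). With naive replicate 2 or 3 left out it was 2 (beside 791 of 14450 and 773 of 14423). The median log2 fold change was -0.16, and ran from -0.29 with post-MI replicate 3 left out to -0.06 with post-MI replicate 1 left out. COPB1, a subunit of the COPI coat, averaged 162 ± 21.1 CPM with post-MI plasma and 229 ± 7.50 CPM with naive plasma (SD, n = 3 each), with -0.50 ± 0.14 as the log2 fold change and its SE (edgeR adjusted p = 0.491). In N-glycosylation (20 genes tested, median -0.11), 5 lay lower and 1 higher without overlap (25% and 5%, beside 7.82% and 8.32% of all genes). The lower ones included PGM3 at -0.45 ± 0.14 and GFPT1 at -0.35 ± 0.13 (SE), both of the hexosamine pathway. The higher one was ALG12 at 0.43 ± 0.18 (SE), and edgeR called 0 of the 20. At an unadjusted p under 0.05, 3 were lower and 1 higher, beside 4.08% and 4.61% of all genes. With post-MI replicate 1 left out 0 were either way, beside 4.81% of all genes, and the median was -0.02. With post-MI replicate 3 left out 4 were lower, beside 661 of 14460 genes, and the median was -0.16.

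Chaperones outside the ER were read beside them. Of 19 cytosolic heat shock genes 7 lay lower with post-MI plasma without overlap and 1 higher (HSF1, named after its values were seen), or 36.8% and 5.26%, beside 7.82% and 8.32% of all genes, with a median of -0.35 and 0 past the adjusted threshold by edgeR. With naive replicate 1 left out 8 of the 19 lay lower (42.1%, beside 12.8% of all genes). By edgeR 4 of the 19 were lower at an unadjusted p under 0.05, beside 4.08% of all genes. That count was 2 with post-MI replicate 1 left out (beside 2.08%) and 2 with post-MI replicate 2 left out (beside 1.43%). It was 9 with post-MI replicate 3 left out (beside 661 of 14460 genes). With naive replicate 1, 2 or 3 left out it was 3 (beside 485 of 14431, 791 of 14450 and 773 of 14423). DESeq2 called 2 of them, beside 1.51% of all genes. CRYAB, a small heat shock protein, was at 3.06, 6.15 and 7.45 CPM in post-MI replicates 1, 2 and 3, against 14.96, 13.0 and 14.6 CPM in naive replicates 1, 2 and 3 (log2 fold change -1.36 ± 0.32, SE, edgeR adjusted p = 0.363, DESeq2 adjusted p = 0.0123). HSPA4L, of the Hsp110 family, gave -1.30 ± 0.33 (SE, edgeR adjusted p = 0.394, DESeq2 adjusted p = 0.0168). HSP90AA1, the inducible cytosolic relative of HSP90B1, gave -0.51 ± 0.22 (SE, edgeR adjusted p = 0.566). It ran from -0.68 without post-MI replicate 3 to -0.33 without post-MI replicate 1 over the fits with 1 library left out. The difference between the cytosolic and the ER genes was not tested. Mitochondrial chaperones had a median of -0.19 over 9 genes, with 0 apart between the groups, and of -0.07 with naive replicate 1 left out.

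**Figure D5:**
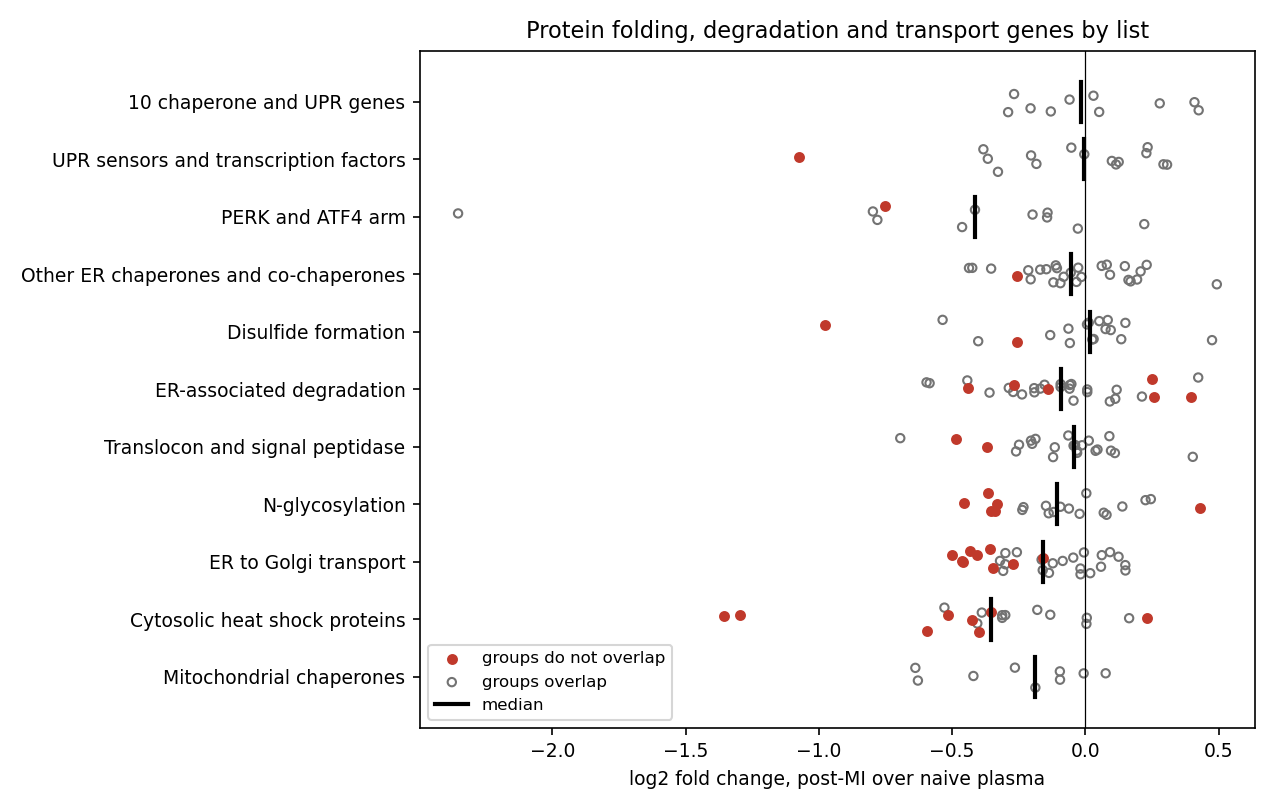
Log2 fold change of each tested gene, post-MI over naive plasma (horizontal axis), by list (rows); red points have groups that do not overlap and black bars are medians. The 10 chaperone and UPR (unfolded protein response) genes hold no red point, ER to Golgi transport holds 9 and cytosolic heat shock proteins 8.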

How the data were processed

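Sequencing used a stranded mRNA library kit with paired-end reads, per the labels' protocols. The submitters' processing notes name the aligner STAR 2.5.2b, the counter featureCounts 2.0.0, SAMtools 1.9, MultiQC 1.5, FastQC and DESeq2 1.26.0, and the genome build Oar_v3.1. Neither the annotation nor the strand setting of the authors' counting is stated there, so reads of overlapping or antisense genes could be shared. The authors deposited 1 table of raw counts for the series, with a row per gene symbol. The deposited files per sample hold a signal equal to those counts over 1 factor per library (100% of non-zero counts within 0.01%), and were used for that check alone. Columns were matched to samples by name, and 0 were left without a sample. All 10 symbols were found in a RefSeq table of another sheep assembly, so no coordinates are given.

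In R 4.3.3, genes were kept by edgeR 4.0.16 (filterByExpr, minimum count 10, minimum total 15), scaled by TMM, and post-MI was compared with naive by the quasi-likelihood test with Benjamini-Hochberg adjustment over all 14326 genes at 0.05. The SE of a log2 fold change is its size divided by the root of the F statistic, and 95% intervals use the total degrees of freedom of the test. DESeq2 1.42.0 and limma 3.58.1 (voom) were alternatives, with other scalings and filters, a replicate block and each library left out. Named genes were the 10, some of the 4 with the smallest p in most pathway lists, and the 8 of most similar profile. None was named from the mitochondrial chaperone and cell cycle lists. ERN1, DNAJB11, CANX and P4HB were added for their roles, after their values were seen. Members and lists were chosen with earlier results of these data known. Same-numbered libraries deviated with correlations of 0.15, -0.12 and 0.08 (replicates 1, 2 and 3), so the numbers were not taken to pair them.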

Additional observations from a re-analysis of the deposited data

How the results depend on the processing

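Across the alternatives run, 0 of the 10 genes passed an adjusted p of 0.05, and the median log2 fold change of the 10 ran from -0.15 (without post-MI replicate 3) to 0.14 (without naive replicate 2). HSPA5, HYOU1, DNAJB9 and XBP1 were negative and MANF positive in every fit, and these fits share libraries. HYOU1 came to -0.02 ± 0.27 (SE) without naive replicate 1. DNAJB9 came to -0.003 ± 0.21 (SE) without both naive replicate 1 and post-MI replicate 3. The sign turned for HSP90B1 without post-MI replicate 1 (0.070) or naive replicate 2 (0.033), with a range of -0.28 to 0.070 over the fits with libraries left out. CALR ran from -0.22 to 0.24 and turned without post-MI replicate 3 (-0.13), naive replicate 1 (-0.048) or naive replicate 3 (-0.0085). HERPUD1 ran from -0.14 to 0.36 and turned without post-MI replicate 3 (-0.027), naive replicate 1 (-0.073) or naive replicate 3 (-0.14). Without both naive replicate 1 and post-MI replicate 3, a choice made after seeing the data, PDIA4 gave -0.058, CALR -0.22, HERPUD1 -0.13 and SDF2L1 -0.066, and with single libraries left out PDIA4 reached 0.49 and SDF2L1 0.57. The cause was not tested. Over all genes edgeR called 0 and DESeq2 215, of which 0 were among the 10 or in the 8 lists of other ER genes. Of the 215, 9 were in the cell cycle, hypoxia and heat shock lists, where DESeq2 called 1.51% of all genes. They were 6 of 10 cell cycle genes, 1 of 11 hypoxia genes (NDRG1) and 2 of 19 heat shock genes (CRYAB and HSPA4L). Without naive replicate 1 and post-MI replicate 3 edgeR called 3 genes (CLEC1A, IL1R1 and LOC101112335), named after their values were seen. With the replicate block edgeR called 0 genes, gave MANF 0.41 (adjusted p = 0.609) and SDF2L1 0.42 (adjusted p = 0.609), and changed no call. Counts of the 10 genes carry a counting error of 0.623% to 8.51% per library, and for DNAJB9 the 5.46% to 6.43% in post-MI libraries is about as large as their spread (1.01 CPM around 16.8 CPM).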
